A study of Mus musculus with 4 samples.

Results

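The genes examined here encode 10 heat shock chaperones of the cytosol and of mitochondria. They were chosen by gene symbol, and all 10 were found among the 24346 symbols listed for each library: the cytosolic HSP70 genes Hspa1a, Hspa1b and Hspa8, the HSP90 genes Hsp90aa1 and Hsp90ab1, the HSP110 gene Hsph1, the HSP40 gene Dnajb1, the small heat shock protein gene Hspb1, and the mitochondrial chaperonin pair Hspd1 and Hspe1. RNA was sequenced from the liver of male ob/ob mice, which lack leptin and are obese. The mice were 6 weeks old at the start and were fed 1 of 4 diets for 4 weeks: a chow diet (CD), CD with 0.01% 7-ketocholesterol (CD+7KC), a western type diet of high fat content (WD), or WD with 0.01% 7-ketocholesterol (WD+7KC). 7-ketocholesterol (7KC) is an oxidation product of cholesterol, and cholesterol made up 1% of every diet. Each group had 1 library, so that no difference between groups has a replicate check, no test of the conditions could be made, and it is not stated how many mice a library holds. Lean or leptin-sufficient mice were not among these libraries.

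Heat shock chaperones bind unfolded or newly made proteins and help them to fold. In the cytosol, HSP40 proteins deliver clients to HSP70, HSP110 proteins reload HSP70 with ATP by exchanging its nucleotide, and HSP90 receives clients such as nuclear receptors and kinases from HSP70. In mitochondria, Hspd1 (HSP60) forms a folding chamber that is closed by its lid Hspe1 (HSP10). Some of these genes are expressed at all times (Hspa8, Hsp90ab1), whereas others are known to be strongly induced by heat or proteotoxic stress through the transcription factor HSF1 (Hspa1a, Hspa1b, Dnajb1, Hsph1, Hspb1).

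HSF1 binds repeats of the unit GAA or its reverse complement TTC, spaced by a pair of bases. The following stretches before the start sites show where such repeats stand in the genes described below, with each match to GAANNTTC or TTCNNGAA in capitals. Sequences are from RefSeq (GRCm38.p6), read along the strand of the gene. The first pair shows how little Hspa1a and Hspa1b differ: 1 of the 150 bases before the start differed between them, and 4 bases in the whole window from 250 bases before to 50 bases after the start.
Hspa1a, chr17:34972157-34972306, minus strand: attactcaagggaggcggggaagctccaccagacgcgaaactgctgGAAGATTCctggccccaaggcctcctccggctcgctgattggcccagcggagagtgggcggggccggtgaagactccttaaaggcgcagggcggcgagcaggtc
Hspa1b, chr17:34959239-34959388, minus strand: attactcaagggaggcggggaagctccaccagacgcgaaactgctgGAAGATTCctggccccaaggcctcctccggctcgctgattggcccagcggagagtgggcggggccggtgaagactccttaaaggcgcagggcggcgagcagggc
Hspe1, with Hspd1 on the opposite strand, chr1:55088053-55088082, plus strand: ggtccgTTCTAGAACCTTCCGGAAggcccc
Hsph1, chr5:149636351-149636380, minus strand: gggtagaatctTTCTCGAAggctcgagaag
Hspb1, distal match, chr5:135887791-135887820, plus strand: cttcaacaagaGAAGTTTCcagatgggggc
Hspb1, proximal match, chr5:135887811-135887840, plus strand: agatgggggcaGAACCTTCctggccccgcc
Hspd1 and Hspe1 are transcribed away from each other, and their stretch is shown because it lies between their starts. The start of Hspd1 at position 55087932 and that of Hspe1 at position 55088148 were 216 bases apart, and 3 overlapping matches stood in that interval in one run, the middle one beginning at base -84 counted from the start of Hspe1. A second Hspd1 start, at position 55088243, lies inside Hspe1. The 7 members in the promoter table had 10 windows, as some have several starts. Of these members, 6 had a match to GAANNTTC or TTCNNGAA on either strand within at least 1 window, and Dnajb1 had none. Hspd1 and Hspe1 are counted here for the same stretch, and Hspa1a and Hspa1b for near-identical ones. This count is per gene, whereas the shares below are per window. Both motifs read the same on either strand and can overlap each other. Among all 32851 promoter windows of the same length, 15.1% held at least 1 of the motifs (7.86% GAANNTTC and 8.52% TTCNNGAA). These are matches of letters only. Hspa8, Hsp90aa1 and Hsp90ab1 were not in the promoter table.

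The levels are FPKM values (fragments scaled by transcript length and by mapped depth), which the authors computed with Cufflinks, and they can be compared between genes because they are per length. Low FPKM values rose in steps of whole reads, from which 11000000 fragments were estimated for CD, 11030000 for CD+7KC, 9460000 for WD and 12160000 for WD+7KC. Between 73.8% and 74.8% of low values then came to whole reads with a tolerance of 0.1. Read numbers and 95% intervals below rest on that estimate and cover counting error between libraries only. The FPKM values summed to between 602059 (WD+7KC) and 715605 (CD), so that rescaling the libraries to equal sums moved the all-gene median of log2 changes for WD+7KC against WD from 0.002 to 0.21, and that for WD+7KC against CD+7KC from 0.003 to 0.20. Values after rescaling are therefore given where they change a reading. In those comparisons a rescaled value is to be read against the rescaled all-gene median and not by its sign alone. Changes are log2 ratios of FPKM + 0.1, a scale on which genes of low level such as Hspa1a appear to change less than they did. Intervals, and values after rescaling to equal sums given for single members, are without the 0.1.

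The CD and WD libraries stood apart in the beta globin gene Hbb-bs, which was at 0.0060 FPKM in CD and 0.0059 in CD+7KC, against 13.5 in WD and 10.4 in WD+7KC. The differences of Hspa8, Hspb1, Hspa1b and Hspd1 between the diets run along the same split of the libraries. The part of that split in them was not tested. Hba-a1, another erythroid gene, did not split the libraries so. It was at 89.8 FPKM in CD and 54.5 in CD+7KC, against 146 in WD and 70.0 in WD+7KC. Alas2 went the other way, with 86.5 FPKM in CD and 81.3 in CD+7KC, against 30.9 in WD and 23.3 in WD+7KC.

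Together the 10 genes held 0.236% of all FPKM in CD and 0.250% in CD+7KC, against 0.254% in WD and 0.302% in WD+7KC. In each library 9 of the 10 genes were at 1 FPKM or more, and Hspa1a was below 1 FPKM in each. Hspa8 alone made up 33.0% of the members' summed FPKM in CD and 32.7% in CD+7KC, against 38.9% in WD and 36.6% in WD+7KC.

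**Figure D1:**
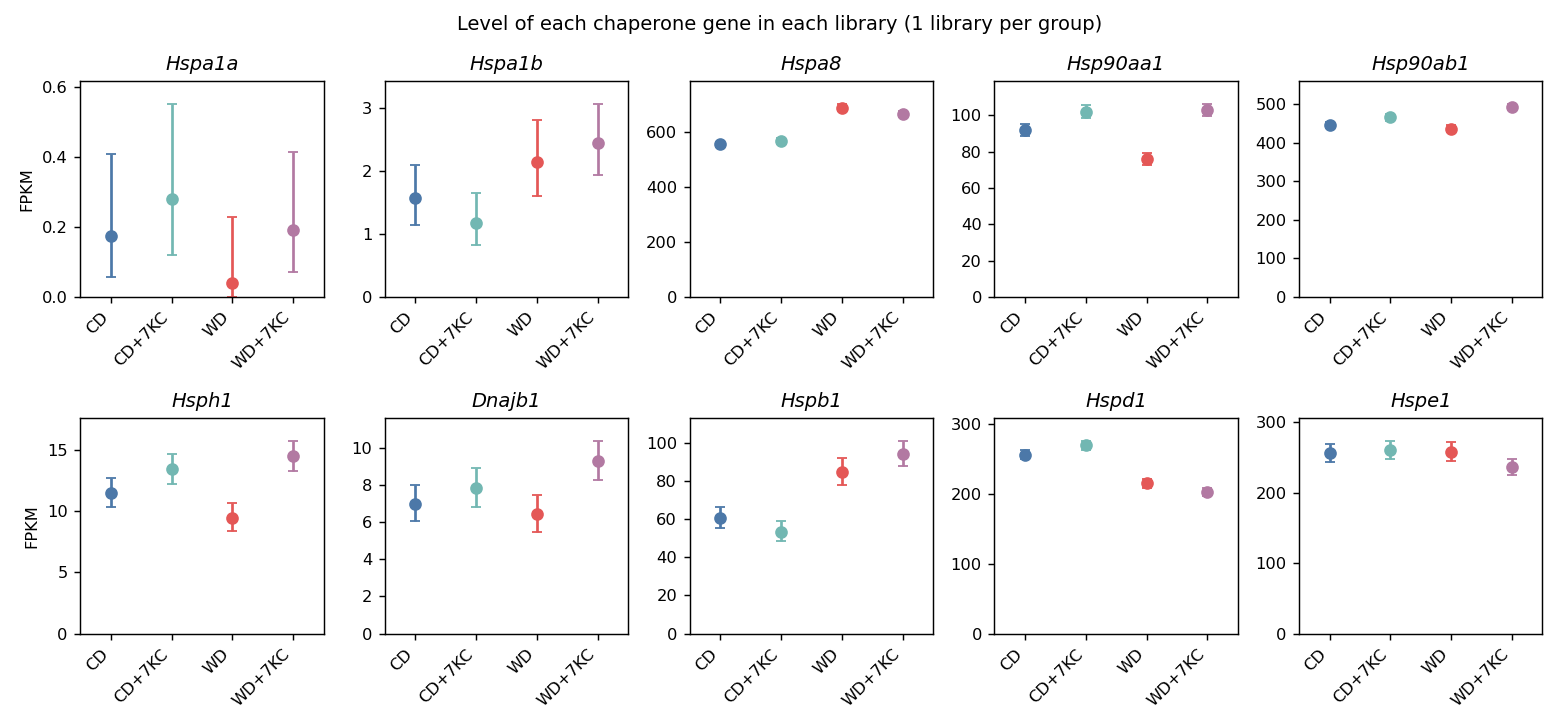
FPKM of each of the 10 chaperone genes (vertical axes, starting at 0) in the 4 libraries; points are the 1 library of each group and bars are exact Poisson 95% intervals of the estimated reads (counting error only). Hsp90aa1, Hsp90ab1, Hsph1 and Dnajb1 are lowest in WD and highest in WD+7KC, Hspa8, Hspb1 and Hspa1b are higher in both WD libraries than in both CD libraries, and Hspd1 is lower.

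HSP90, HSP110 and HSP40 genes shared 1 order of the libraries, lowest in WD, then CD, then CD+7KC, and highest in WD+7KC. Hsp90aa1 (chromosome 12, 110690605 to 110702728, GRCm38, minus strand) encodes the inducible HSP90 of the cytosol. It was at 91.7 FPKM in CD and 102 in CD+7KC, against 75.8 in WD and 103 in WD+7KC. WD was the low library, and CD+7KC and WD+7KC lay within counting error of each other (log2 fold change 0.011, 95% counting interval -0.055 to 0.078), although after rescaling to equal sums WD+7KC was above by 0.22 (0.15 to 0.29). Hsph1 (chromosome 5, 149614287 to 149636376, minus strand), the nucleotide exchange factor of HSP70, was at 11.5 FPKM in CD and 13.4 in CD+7KC, against 9.47 in WD and 14.5 in WD+7KC. Its 2 highest libraries, CD+7KC and WD+7KC, did not differ beyond counting error as deposited (0.11, -0.074 to 0.29). Dnajb1 (chromosome 8, 83608193 to 83612653, plus strand), the J domain partner of HSP70, was at 6.97 FPKM in CD and 7.82 in CD+7KC, against 6.42 in WD and 9.28 in WD+7KC. For Dnajb1 neighbours in the order did not differ beyond counting error as deposited, while WD+7KC stood above WD. Hsp90ab1 (chromosome 17, 45567775 to 45573271, minus strand), the constitutive HSP90, had the same order within a narrower range, from 436 FPKM in WD and 447 in CD to 466 in CD+7KC and 492 in WD+7KC. Of 11342 genes with at least 1 FPKM in a library, 3.0% had this order, or 7.27% after rescaling to equal sums. The order was noticed in these values. It held for these 4 members under each scaling tried, except that Hsp90ab1 lost it when the libraries were rescaled to equal sums without the 20 genes of highest mean FPKM.

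In WD+7KC relative to WD, Hsph1 was higher by 0.60 on the log2 scale (counting interval 0.40 to 0.83), Dnajb1 0.52 (0.25 to 0.82), Hsp90aa1 0.44 (0.36 to 0.52) and Hsp90ab1 0.17 (0.14 to 0.21). All 4 intervals lay above 0, and after rescaling to equal sums the values were 0.83, 0.75, 0.66 and 0.39. Among genes with at least 1 FPKM in WD or WD+7KC, 8.82% had a larger value than Hsph1, 10.2% than Dnajb1 and 12.6% than Hsp90aa1, so that these changes were among the upper but not the extreme ones. In CD+7KC relative to CD the same genes were higher by less, which their shared order of the libraries implies. The values were 0.22 for Hsph1 (0.022 to 0.42), 0.15 for Hsp90aa1 (0.083 to 0.22) and 0.061 for Hsp90ab1 (0.024 to 0.098). For Dnajb1 the value of 0.16 had an interval that included 0 (-0.12 to 0.44). In WD relative to CD, Hsp90aa1 (-0.27, -0.35 to -0.20) and Hsph1 (-0.27, -0.51 to -0.052) were lower. Dnajb1 (-0.12) and Hsp90ab1 (-0.034) had intervals that included 0.

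Because the WD library was the lowest for these genes, the change with 7KC under WD was set beside that under CD. The log2 fold change of 7KC was larger under WD by 0.38 for Hsph1, 0.36 for Dnajb1, 0.29 for Hsp90aa1 and 0.11 for Hsp90ab1. The order of the libraries by which these genes were grouped fixes that direction in advance, so that only the sizes are described. Over the 10 members, these genes included, the median of this difference was 0.31, against -0.018 over genes with at least 1 FPKM. After rescaling to equal sums these medians were 0.49 and 0.16. With 1 library per group the difference was not tested.

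The ratio of a pair of genes within a library does not depend on the scaling. Hsp90aa1 was at 20.5% of the FPKM of Hsp90ab1 in CD and 21.9% in CD+7KC, against 17.4% in WD and 20.9% in WD+7KC. WD was thus the lowest library also by this measure, in which the inducible HSP90 is read against the constitutive one. Hsph1 stood at 2.06% of Hspa8 in CD and 2.35% in CD+7KC, against 1.37% in WD and 2.17% in WD+7KC. For Dnajb1 the same ratio to Hspa8 was 1.25% in CD and 1.37% in CD+7KC, against 0.929% in WD and 1.39% in WD+7KC. Hspa8 was itself higher in WD than in CD, by 0.31 on the log2 scale, which lowers both ratios in WD. Dnajb1 alone did not differ beyond counting error between WD and CD.

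The HSP70 genes of the cytosol did not follow this order. Hspa8 (HSC70, chromosome 9, 40800984 to 40810087, plus strand), the constitutive HSP70 that also strips clathrin from vesicles, had the highest level of the members: 557 FPKM in CD and 569 in CD+7KC, against 691 in WD and 667 in WD+7KC. Both WD libraries were above both CD libraries. Its log2 fold change was 0.31 in WD relative to CD (0.27 to 0.35) and 0.23 in WD+7KC relative to CD+7KC (0.19 to 0.26), the latter 0.44 after rescaling to equal sums. With 7KC it was 0.032 under CD (-0.006 to 0.069) and -0.051 under WD (-0.086 to -0.016). The latter changed sign to 0.17 after rescaling to equal sums, which was below the all-gene median of 0.21 on that scale. The gene hosts the small nucleolar RNAs Snord14c, Snord14d and Snord14e.

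The inducible HSP70 genes, which lie 9951 bases apart on chromosome 17, were low in these livers. Hspa1b (34956436 to 34959238, minus strand, 1 exon) was at 1.57 FPKM in CD and 1.18 in CD+7KC, against 2.15 in WD and 2.46 in WD+7KC, on an estimated 45, 34, 53 and 78 reads. The WD libraries were above the CD libraries, and the interval lay above 0 in WD+7KC relative to CD+7KC (log2 fold change 0.998, 0.46 to 1.68) but not in WD relative to CD (0.43, -0.15 to 1.06). For 7KC the values were -0.38 under CD (-1.10 to 0.27) and 0.19 under WD (-0.33 to 0.73), and both intervals include 0. Hspa1a (34969190 to 34972156, minus strand, 1 exon) was at 0.175 FPKM in CD and 0.279 in CD+7KC, against 0.0407 in WD and 0.190 in WD+7KC, on an estimated 5, 8, 1 and 6 reads. All of these read numbers of Hspa1a and Hspa1b came out within 0.1 of a whole number. The ratio of Hspa1a in WD+7KC to WD was 4.67 with a counting interval of 0.566 to 215. At so few reads, no difference of Hspa1a between libraries could be detected.

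Reads of near-identical genes can be split or lost between copies, and how the authors' mapping treated them is not stated. Of the windows of 75 bases (the read length) in the Hspa1a mRNA, 61.7% also occurred in a transcript of another gene, mostly Hspa1b. For Hspa1b the share was 55.8%. With Hspa1a and Hspa1b summed, the log2 change was 0.26 for WD+7KC against WD (-0.24 to 0.80) and -0.24 in CD+7KC relative to CD (-0.88 to 0.37), and both intervals included 0. The largest share was 68.6% in Hspa8, for which the transcripts with the same windows belonged to 11 other genes. It was 57.7% in Hspb1, 53.1% in Hsp90aa1, 33.7% in Hspd1, 29.1% in Hspe1 and 0.736% in Hsp90ab1. Hsph1 and Dnajb1 shared no such window with another gene. Hspd1 and Hspe1 overlap on opposite strands, and Hspa1a overlaps Gm20481, and whether reads were counted by strand is not stated.

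**Figure D2:**
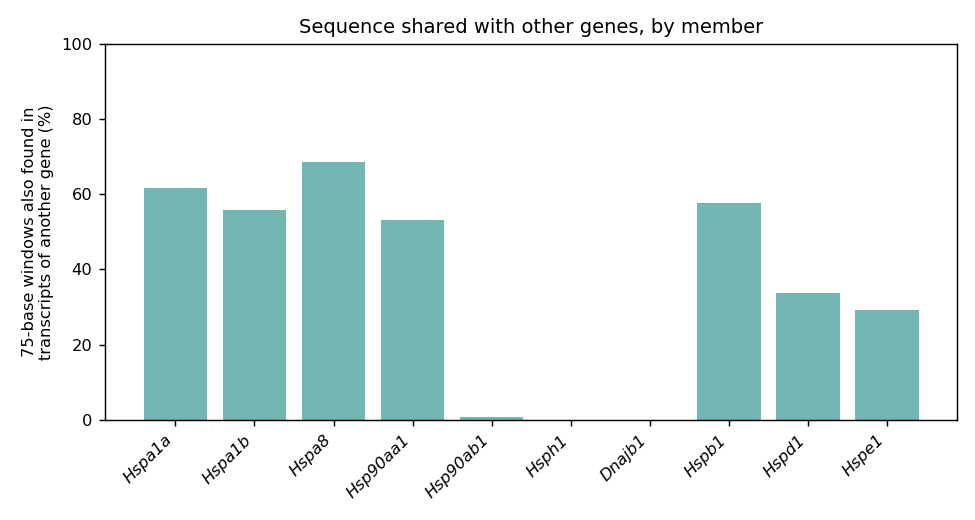
Percentage of all 75-base windows of each member's mRNA (GENCODE vM21) that also occur, on either strand, in a transcript of another gene. Hspa8 has the highest share at 68.6%, while Hsph1 and Dnajb1 have none.

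Hspb1 (HSP25, chromosome 5, 135887919 to 135889563, plus strand), a small heat shock protein that holds unfolded clients and binds the actin cytoskeleton, was at 60.6 FPKM in CD and 53.4 in CD+7KC, against 84.6 in WD and 94.2 in WD+7KC. Both WD libraries were above both CD libraries. Its log2 fold change was 0.48 in WD relative to CD (0.30 to 0.66) and 0.82 in WD+7KC relative to CD+7KC (0.65 to 0.99), the latter 1.03 after rescaling to equal sums. With 7KC it was -0.18 under CD (-0.38 to 0.010) and 0.15 under WD (-0.004 to 0.31), and the latter was 0.37 (0.21 to 0.53) after rescaling. The centred log2 levels of Hspb1 and Hspa1b over the 4 libraries differed by a root mean square of 0.078, the second smallest distance between members after that of Hsp90aa1 and Hsph1 (0.068). Dnajb1 and Hsph1 followed with 0.081. These distances are over 4 libraries only and describe the pattern.

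In mitochondria, the chaperonin Hspd1 (chromosome 1, 55077835 to 55088243, minus strand) was at 255 FPKM in CD and 269 in CD+7KC, against 215 in WD and 202 in WD+7KC. Both WD libraries were below both CD libraries. The log2 fold change was -0.25 in WD relative to CD (-0.30 to -0.19) and -0.41 in WD+7KC relative to CD+7KC (-0.46 to -0.36), and these stayed below 0 after rescaling to equal sums (-0.22 and -0.20). Its lid Hspe1 (chromosome 1, 55088132 to 55091307, plus strand) had the narrowest range of the members, with 256 FPKM in CD and 261 in CD+7KC, against 258 in WD and 237 in WD+7KC. Hspe1 did not differ beyond counting error between WD and CD (0.010, -0.094 to 0.11), and its value of -0.14 in WD+7KC relative to CD+7KC changed sign to 0.071 after rescaling to equal sums. That rescaled value was below the all-gene median of 0.20 in the same comparison. Although the genes share the interval between their starts printed above, the ratio of Hspd1 to Hspe1 in FPKM was 0.995 in CD and 1.03 in CD+7KC but 0.832 in WD and 0.853 in WD+7KC. With 7KC, Hspd1 was 0.074 under CD (0.024 to 0.12) and -0.089 under WD (-0.15 to -0.032), and Hspe1 0.024 (-0.075 to 0.12) and -0.12 (-0.23 to -0.021). The values under WD changed sign after rescaling to equal sums (0.13 and 0.092), but both were below the all-gene median of 0.21 on that scale.

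**Figure D3:**
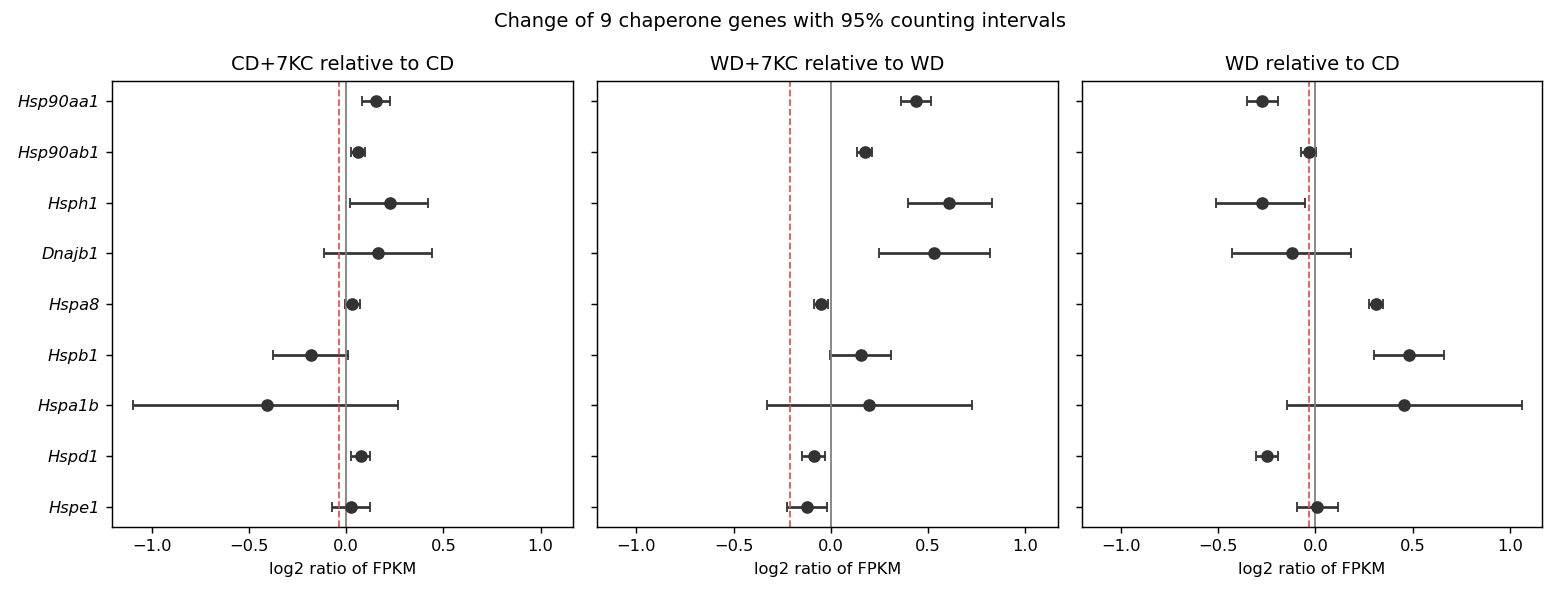
Log2 ratio of FPKM (horizontal axis, no pseudocount) of 9 members in 3 comparisons, with 95% counting intervals. The solid line is at 0. The dashed red line lies left of 0 by the shift of the all-gene median of log2 changes on rescaling to equal sums. Hsph1, Dnajb1 and Hsp90aa1 lie furthest to the right in WD+7KC relative to WD, whereas Hspa8 and Hspb1 are to the right and Hspd1 to the left in WD relative to CD. Hspa1a is left out, as its WD library held an estimated 1 read.

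Few of the members passed a log2 fold change of 1 in either direction. The number was 0 of 10 in CD+7KC relative to CD, where 6.75% of all tested genes did. It was 1 of 10 in WD+7KC relative to WD (9.0% of all tested genes), and that gene was Hspa1a with an estimated 1 read in WD. It was 0 of 10 in WD relative to CD (9.69%) and 0 of 10 in WD+7KC relative to CD+7KC (12.6%). At a ratio of 1.5 in either direction, 9 members with at least 1 FPKM were read against genes of such level. The number was 0 in CD+7KC relative to CD (8.36% of genes), 1 in WD+7KC relative to WD (Hsph1, 12.6%), 0 in WD relative to CD (16.8%) and 2 in WD+7KC relative to CD+7KC (Hspa1b and Hspb1, 22.3%). The shares of members past these thresholds were near or below the background. In direction, 7 of these 9 members were higher in CD+7KC than in CD (48.2% of genes), 6 were higher in WD+7KC than in WD (46.4%), 4 were higher in WD than in CD (49.3%) and 7 were higher in WD+7KC than in CD+7KC (48.3%). The median over all 10 members was 0.18 in WD+7KC relative to WD (0.002 over all tested genes) and 0.068 in CD+7KC relative to CD (-0.001). It was -0.076 in WD relative to CD (0.010) and 0.094 in WD+7KC relative to CD+7KC (0.003). By counting intervals in WD+7KC relative to WD, 4 members lay above 0, 3 below 0 and 3 included 0. After rescaling to equal sums 7 lay above 0, 0 below 0 and 3 included 0, while the median over all tested genes moved to 0.21. Such intervals were not computed for other genes, so that these counts have no background share. For genes of many reads, small changes such as that of Hspa8 already leave 0. The counts are therefore no result about the members as a group.

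Other chaperones were read from lists of the same pathway, and the largest and smallest values named are those of genes whose mean level reached 1 FPKM. Of 5 further HSP70 and HSP110 genes, 4 stood higher under WD when 7KC was added and 1 stood lower, with a median log2 fold change of 0.12, and 3 were higher in CD+7KC than in CD (median 0.11). Hspa4l, an HSP110 relative of Hsph1, was at 7.44 FPKM in CD and 8.33 in CD+7KC, against 4.94 in WD and 7.82 in WD+7KC. WD was the lowest library for it as well, with log2 changes of 0.65 for WD+7KC against WD and -0.58 for WD against CD. Of the 8 further HSP40 genes of the cytosol, 2 stood higher with 7KC under WD and 6 stood lower (median -0.13). On the scale of equal sums 6 lay above 0 and 2 below it, but the list median of 0.084 was below that over all tested genes (0.21). In CD+7KC against CD, 1 was higher and 7 were lower (median -0.15). Dnajb5 had the largest value of them in WD+7KC relative to WD, 0.95, from 0.802 to 1.64 FPKM, and Dnaja4 the smallest, -0.42.

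The 18 cochaperones of HSP70 and HSP90, several of which are known HSF1 targets, had a median of 0.017 in WD+7KC relative to WD (10 higher, 8 lower) and 0.024 in CD+7KC relative to CD (10 higher, 8 lower). Fkbp5, a glucocorticoid-induced partner of HSP90, had the largest value under WD, 0.23, and Bag1 the smallest, -0.25. Fkbp4, its relative in steroid receptor complexes, had the largest value under CD, 0.32. The median of these partners was thus near 0, or 0.23 under WD after rescaling to equal sums (0.21 over all tested genes). The HSP90 genes and Hsph1 were higher with 7KC. They were grouped by an order that includes such a rise and was noticed in these values, so their contrast with the whole list follows from that choice. Of the 6 other small heat shock protein genes with values, 4 were lower in WD+7KC than in WD (median -0.11, or 0.11 after rescaling), while Hspb9, listed at 0 in WD, was past 1. Hspb8, the most highly expressed of them, was at 122 FPKM in CD and 105 in CD+7KC, against 109 in WD and 100.5 in WD+7KC. This was unlike Hspb1, which was higher in the WD libraries. The 8 subunits of the cytosolic chaperonin TRiC, which folds actin and tubulin, lay between -0.14 (Cct6a) and 0.062 (Cct3) in WD+7KC relative to WD, with a median of -0.028. All 8 were above 0 after rescaling to equal sums, but their median of 0.19 was then near that over all tested genes (0.21).

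Mitochondrial partners of Hspd1 and Hspe1 were lower in WD+7KC than in WD for 11 of 12 genes (median -0.19). On the scale of equal sums 7 lay above 0 and 5 below it, but the list median of 0.022 stayed below that over all tested genes (0.21). Lonp1, the matrix protease, had the largest value as deposited, 0.040, and Hscb, a cochaperone of iron-sulfur cluster assembly, the smallest, -0.64. In WD relative to CD, 5 were higher and 6 lower, and Clpx, the unfoldase of the ClpXP protease, had the smallest value, -0.74. The chaperones of the endoplasmic reticulum, read for comparison, had 10 of 12 genes higher in WD+7KC than in WD (median 0.11, or 0.33 after rescaling) and 4 of 12 higher in CD+7KC than in CD (median -0.072). Sdf2l1 had the largest value among them under WD, 0.39, and Dnajb9 the smallest, -0.21.

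**Figure D4:**
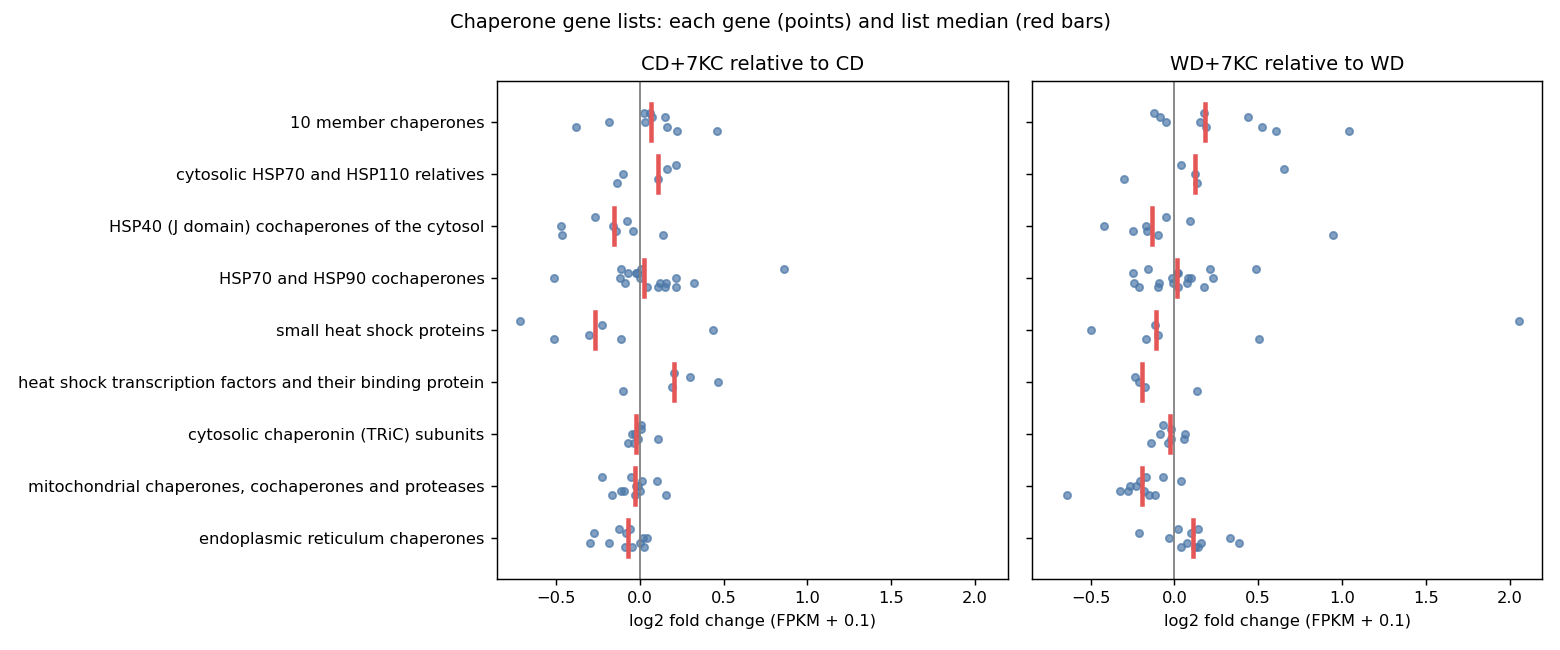
Log2 fold change with 7KC (horizontal axis, FPKM + 0.1) under CD (left) and WD (right) for the 10 members and 8 lists of related genes; points are genes not at 0 in both libraries, and red bars are list medians. The member median is 0.18 under WD, and that of the mitochondrial list is -0.19.

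The transcription factor Hsf1 itself was at 6.11 FPKM in CD and 5.69 in CD+7KC, against 5.59 in WD and 6.15 in WD+7KC. With 7KC it changed by 0.14 under WD and -0.10 under CD on the log2 scale. Hsbp1, a binding protein of HSF1, had -0.24 and 0.20 in the same comparisons, and over the heat shock factor genes and Hsbp1 the medians were -0.20 (4 genes, 0.018 after rescaling to equal sums) and 0.20 (5 genes).

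Other measures also differed between the libraries, in several orders, and their part in the results was not tested. The summed FPKM of 6 endothelial markers was 55.0 in CD and 80.2 in CD+7KC, against 43.5 in WD and 123 in WD+7KC. The sum had the same order of libraries as Hsp90aa1, Hsp90ab1, Hsph1 and Dnajb1. With 7KC, 6 of 6 markers were higher under WD and 5 of 6 under CD. Lyve1 and Stab2 lacked the order, as Lyve1 was lower in CD+7KC (7.11 FPKM) than in CD (9.82) and Stab2 higher in WD (3.38) than in CD (3.12). The 8 macrophage and Kupffer cell markers summed to 86.2 FPKM in CD and 164 in CD+7KC, against 176 in WD and 364 in WD+7KC, with 8 of 8 higher with 7KC under either diet. None of these endothelial or macrophage markers was at 0 in a library. In bulk liver, a change in the share of a cell type and a change in RNA per cell cannot be told apart. The 8 hepatocyte markers summed to 83056 FPKM in CD and 75111 in CD+7KC, against 79280 in WD and 60497 in WD+7KC, and marked the libraries as liver. Stellate cell markers summed to between 160 and 194 FPKM, those of cholangiocytes to between 46.4 (CD+7KC) and 186 (WD+7KC), chiefly Spp1, and those of erythroid cells to between 104 (WD+7KC) and 191 (WD). Within the erythroid list, Alas2 had log2 changes of -1.48 for WD against CD and -1.80 for WD+7KC against CD+7KC, opposite in direction to Hbb-bs. Markers of neutrophils summed to at most 20.5 FPKM, and those of T and B lymphocytes to between 1.15 and 3.53 FPKM. The 3 adipocyte markers summed to 83.6 FPKM in CD and 66.6 in CD+7KC, against 104 in WD and 143 in WD+7KC, nearly all of it Fabp4, while Plin1 was at 0 in each library and Adipoq at 0 in both WD libraries. Of the 3 muscle markers, Myh4 and Ckm were at 0 in each library and Acta1 was at 0.248 FPKM in WD and at 0 in the others.

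Stress at sampling, body temperature and time of day are known to affect heat shock genes, and lists that respond to them were read beside the members, whose relation to them was not tested. Of 9 immediate early genes, 9 were lower in WD than in CD (median -0.51, smallest Fos with -1.39), and 6 were higher in WD+7KC than in WD (median 0.081, largest Atf3 with 0.95). Hsp90aa1 and Hsph1 were also lower in WD than in CD. In WD+7KC relative to CD+7KC, 8 of the 9 immediate early genes were lower (median -0.59), with Hsp90aa1 at 0.011 and Hsph1 at 0.11. After rescaling to equal sums 6 of the 9 were lower (median -0.39), with Hsp90aa1 at 0.22 and Hsph1 at 0.32. The median over all tested genes was 0.20 on that scale. The cold-inducible RNA-binding protein gene Rbm3 was at 32.4 FPKM in CD and 26.5 in CD+7KC, against 48.1 in WD and 29.8 in WD+7KC, highest in the library in which those chaperones were lowest. Its relative Cirbp was lower in WD than in CD, by a log2 difference of -0.54. The 13 circadian clock genes had medians of 0.060 in CD+7KC relative to CD, -0.20 in WD+7KC relative to WD (0.016 after rescaling to equal sums) and -0.077 in WD relative to CD. Per2, which is itself known to be heat-responsive, had the largest value with 7KC under CD, 0.49, and under WD, 0.45. The 8 reference genes had medians of -0.014, 0.058 and 0.20 in these comparisons, and Actb, used as a reference gene in many studies, was 0.59 in WD relative to CD.

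The genes nearest to the mean centred profile of the members over the 4 libraries were Gbas, Plk3, Mark4, Fam53b and Cd36, at a root mean square distance of 0.009 to 0.016 on the log2 scale among the 10677 genes whose mean reached 1 FPKM. That mean profile stood at -0.12 in WD and 0.16 in WD+7KC, and 94 genes lay within 0.05 of it, so that many genes shared so shallow a profile. Cd36, a fatty acid receptor, was at 147 FPKM in CD and 153 in CD+7KC, against 138 in WD and 174 in WD+7KC. Hspa1a had the widest range of the members, 1.43 on the log2 scale of FPKM + 0.1, but on at most 8 estimated reads. Nearest to its profile were Gdf15, D630033O11Rik, Rsad1, Limch1 and Acmsd, at distances of 0.097 to 0.14. With so few reads behind that profile, no relation to Hspa1a can be read from this nearness. Gdf15, a stress-induced hepatokine, was at 33.9 FPKM in CD and 43.3 in CD+7KC, against 15.3 in WD and 29.7 in WD+7KC.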

How the data were processed

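Liver RNA of 4 groups of ob/ob mice, with 1 library each, was sequenced by the authors in single-end reads of 75 bases from stranded mRNA libraries. Per the labels, reads were mapped to mm10 with TopHat2 2.0.13, Bowtie2 2.2.3 and SAMtools 0.1.19, and the authors deposited FPKM values computed with Cufflinks 2.2.1, with 1 value per gene symbol. The gene annotation and the treatment of reads with several hits are not given in the sources used here.

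The members and lists were chosen with earlier results of these data known. Log2 fold changes were computed from FPKM + 0.1 in 4 comparisons, for genes not at 0 in both libraries of a comparison, and no test was possible with 1 library per group. Of each list other than the members, genes were named that had the largest or smallest change in CD+7KC relative to CD, WD+7KC relative to WD or WD relative to CD at a mean of at least 1 FPKM, besides the 5 genes nearest in profile to the members' mean and to the member of widest range. Hspb8, Hsf1, Hbb-bs, Cd36 and Gdf15 values and the order of the libraries were singled out after values had been seen. Depth was estimated from low FPKM values of 11701 genes with 1 RefSeq mRNA longer than 500 bases, as FPKM times the length less 200 bases. For Hspa8, Hsph1, Dnajb1 and Hspd1, which have several mRNAs, the shortest one linked to GENCODE vM21 was used, so that their read numbers are approximate. Intervals are exact (Clopper-Pearson for ratios, Poisson for levels, 95%). Positions of genes are from GENCODE vM21 (GRCm38). Code was tested on simulated data. Python 3.11.15, numpy 2.4.6, pandas 2.3.3, scipy 1.17.1 and matplotlib 3.10.9 were used. Alternatives covered the pseudocount, a filter of 1 FPKM, 4 other scalings, thresholds at ratios of 1.5 and 4, and the sum of Hspa1a and Hspa1b. Proteins were not analysed here.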

Additional observations from a re-analysis of the deposited data

Results flagged for a closer look

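For 5 members the change with 7KC had opposite directions under the diets, and with 1 library per group the difference was not tested. The log2 fold change under WD minus that under CD was 0.57 for Hspa1b, 0.34 for Hspb1, -0.083 for Hspa8, -0.16 for Hspd1 and -0.15 for Hspe1. Hspa1b and Hspb1 were lower with 7KC under CD and higher under WD, whereas Hspa8, Hspd1 and Hspe1 were higher under CD and lower under WD. After rescaling the libraries to equal sums, 2 members (Hspa1b and Hspb1) kept opposite directions, and their counting intervals in CD+7KC relative to CD included 0.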

How the results depend on the processing

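No paired analysis was possible because each group had 1 library. Of 40 changes of members (10 in each of 4 comparisons), the sign was kept under each pseudocount, the 1 FPKM filter (36 changes), upper quartile and median-ratio scaling, while 4 changed sign after rescaling to equal sums (TPM) and 5 when the 20 highest genes were left out of the sums. These were Hspa8, Hspd1 and Hspe1 in WD+7KC relative to WD and Hspe1 in WD+7KC relative to CD+7KC, with Hsp90ab1 in WD relative to CD besides in the latter. The member median in WD+7KC relative to WD became 0.40 with equal sums and 0.35 without the top 20 genes, and in WD+7KC relative to CD+7KC 0.30 and 0.29. The all-gene medians became 0.21 and 0.17 in the former comparison, and 0.20 and 0.19 in the latter. The median difference of 7KC between the diets became 0.20 with a pseudocount of 1, 0.49 with equal sums and 0.47 without the top 20 genes. The genes past a log2 fold change of 1 in CD+7KC relative to CD, WD+7KC relative to WD, WD relative to CD and WD+7KC relative to CD+7KC numbered 1059, 1418, 1511 and 2007. They numbered 113, 189, 287 and 541 with a pseudocount of 1, 2380, 2830, 2929 and 3582 with 0.01, and 287, 521, 602 and 1043 with the 1 FPKM filter. At a ratio of 1.5 (in place of 2) they numbered 2742, 3310, 3778 and 4597, and 165, 190, 262 and 313 at a ratio of 4. Members past 1 in WD+7KC relative to WD became 0 with a pseudocount of 1, the filter or a ratio of 4, and 2 at a ratio of 1.5. In WD relative to CD they became 1 with a pseudocount of 0.01 or none, with equal sums and at a ratio of 1.5. In WD+7KC relative to CD+7KC they became 1 with a pseudocount of 0.01 or none and with upper quartile scaling, and 2 with equal sums, without the top 20 genes and at a ratio of 1.5. Depth limited Hspa1a, at 1 to 8 estimated reads, and Hspa1b, at 34 to 78.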
